A study of Mus musculus with 8 samples.

Results

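The Serpin family was described across sorted keratinocytes of K14Snail and wild type mice. Its members are all genes whose platform symbol starts with Serpin and that have a probe set naming no other gene, with the probe set of the highest mean over the 8 arrays standing for a gene. This gave 48 genes of the 19938 named on the arrays, 15 of them in clade A, 24 in clade B and 9 in other clades. The cells were back-skin keratinocytes of CD1 mice at 8 weeks of age, of mixed sex, sorted magnetically. There were 8 groups of 1 array each: CD34 positive, CD34 negative, Mts24 positive and Mts24 negative cells of K14Snail mice, and the same 4 fractions of wild type mice. K14Snail mice carry a Snail transgene under the keratin 14 promoter, which is active in the basal layer and the outer root sheath of the follicle. CD34 marks the hair follicle bulge and Mts24 an antigen of the upper follicle. Cells of 11 mice were pooled for every CD34 group and of 9 mice for every Mts24 group, and the design treats the negative fractions as controls of the positive ones. Whether a positive and a negative fraction came from the same mice is not stated. Fractions with the same genotype and marker are treated here as 1 pool, an assumption based on their equal numbers of mice.

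Serpins are proteins with a shared fold in which an exposed loop serves as bait for a protease. When the protease cuts the loop, an inhibitory serpin changes shape and traps the enzyme in a covalent complex. Clade A serpins are secreted, clade B serpins mostly stay inside cells, and some members, such as Serpinh1 and Serpinb5, do not act as inhibitors. In skin, serpins face the kallikreins and other proteases that shed the cornified layer, urokinase, complement proteases and lysosomal cathepsins.

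The sequences shown first are RefSeq promoter windows, on GRCm38.p6, of 4 members described in what follows. Shown are the member with the largest genotype difference (Serpina3b) and a clade A member with lower K14Snail levels in both positive fractions (Serpina12). The others are clade B members of the same chromosome 1 cluster with opposite marker differences (Serpinb11 and Serpinb12). This is not a ranking: Serping1 and Serpinb7, not shown, ranged over 3.84 and 3.80 across the arrays, against 3.37 for Serpina12. No window was found for Serping1. Each window has 300 bases, 250 before the annotated start and 50 after it, printed on the gene's strand. Capitals mark CAGGTG or CACCTG, the E-box letters that Snail is known to bind, read on both strands. Serpina3b lies at chr12:104127746-104128045 on the plus strand, Serpina12 at chr12:104044394-104044693 on the minus strand, Serpinb11 at chr1:107362064-107362363 on the plus strand, and the window of Serpinb12 that holds a box, of 2 in the table, at chr1:106938707-106939006 on the plus strand.
Serpina3b: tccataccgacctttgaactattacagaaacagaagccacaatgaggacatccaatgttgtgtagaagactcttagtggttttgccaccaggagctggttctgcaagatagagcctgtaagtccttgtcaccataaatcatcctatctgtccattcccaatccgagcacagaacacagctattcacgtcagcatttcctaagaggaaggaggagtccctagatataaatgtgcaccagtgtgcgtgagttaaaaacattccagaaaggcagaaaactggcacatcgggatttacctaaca
Serpina12: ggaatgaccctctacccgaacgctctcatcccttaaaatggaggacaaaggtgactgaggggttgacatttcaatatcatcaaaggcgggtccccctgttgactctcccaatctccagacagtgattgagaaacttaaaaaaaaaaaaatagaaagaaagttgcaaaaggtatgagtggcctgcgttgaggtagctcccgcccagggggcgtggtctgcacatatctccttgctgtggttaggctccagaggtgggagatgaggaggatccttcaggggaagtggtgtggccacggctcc
Serpinb11: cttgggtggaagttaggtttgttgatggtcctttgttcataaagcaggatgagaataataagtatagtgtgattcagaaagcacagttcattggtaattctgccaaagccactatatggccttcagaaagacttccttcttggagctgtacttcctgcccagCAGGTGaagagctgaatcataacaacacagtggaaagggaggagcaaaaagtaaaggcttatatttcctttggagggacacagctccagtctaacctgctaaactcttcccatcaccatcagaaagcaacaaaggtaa
Serpinb12: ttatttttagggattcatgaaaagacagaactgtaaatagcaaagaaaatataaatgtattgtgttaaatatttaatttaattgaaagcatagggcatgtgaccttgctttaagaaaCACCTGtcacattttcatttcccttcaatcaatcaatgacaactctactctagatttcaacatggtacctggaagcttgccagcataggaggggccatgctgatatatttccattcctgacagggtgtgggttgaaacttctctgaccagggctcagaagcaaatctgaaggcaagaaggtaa
The capitals begin 88 bases before the annotated start in Serpinb11 and 133 bases before it in this Serpinb12 window, while the windows of Serpina3b and Serpina12 held neither these letters nor any CANNTG. Windows were found for 41 of the 48 members, 49 windows in all, and 16 of these (32.7%) held CAGGTG or CACCTG, against 6640 of 32851 windows of all genes (20.2%). Of the 16 windows of tested members, 4 (25%) held it, those of Serpinb11, Serpinb12, Serpinb5 and Serpinb6a. The looser CANNTG, which includes both, was in 33 member windows (67.3%), against 72.3% of all windows. These matches are descriptions of the letters only.

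Values are RMA log2 levels, on which a difference of 1 is 2-fold, and levels of different probe sets were not set against each other. Testing required a level of 7.70, the median over named genes and arrays, in at least 2 of the 8 arrays. Of the Serpin genes 15 were tested and 33 were not. The tested ones were 3 of clade A (Serpina3b, Serpina3n, Serpina12), 10 of clade B (Serpinb1a, Serpinb2, Serpinb5, Serpinb6a, Serpinb7, Serpinb8, Serpinb9, Serpinb10, Serpinb11, Serpinb12) and Serping1 and Serpinh1. Just inside the filter, Serpina3n reached it only in the CD34 positive arrays and Serpinb9 only in the K14Snail positive arrays. Just outside, Serpinb6b and Serpinf2 reached it in 1 array each, at 7.71 and 7.73. Serpinb11 and Serping1 passed the filter through their positive fractions and Serpina3b through its wild type arrays. The passing genes thus had in part to differ between groups, and their counts are given only as descriptions. The same holds for the p-values of Serpina3n, Serpinb9, Serpinb11, Serping1 and Serpina3b in comparisons of the groups that took them past the filter.

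**Figure D1:**
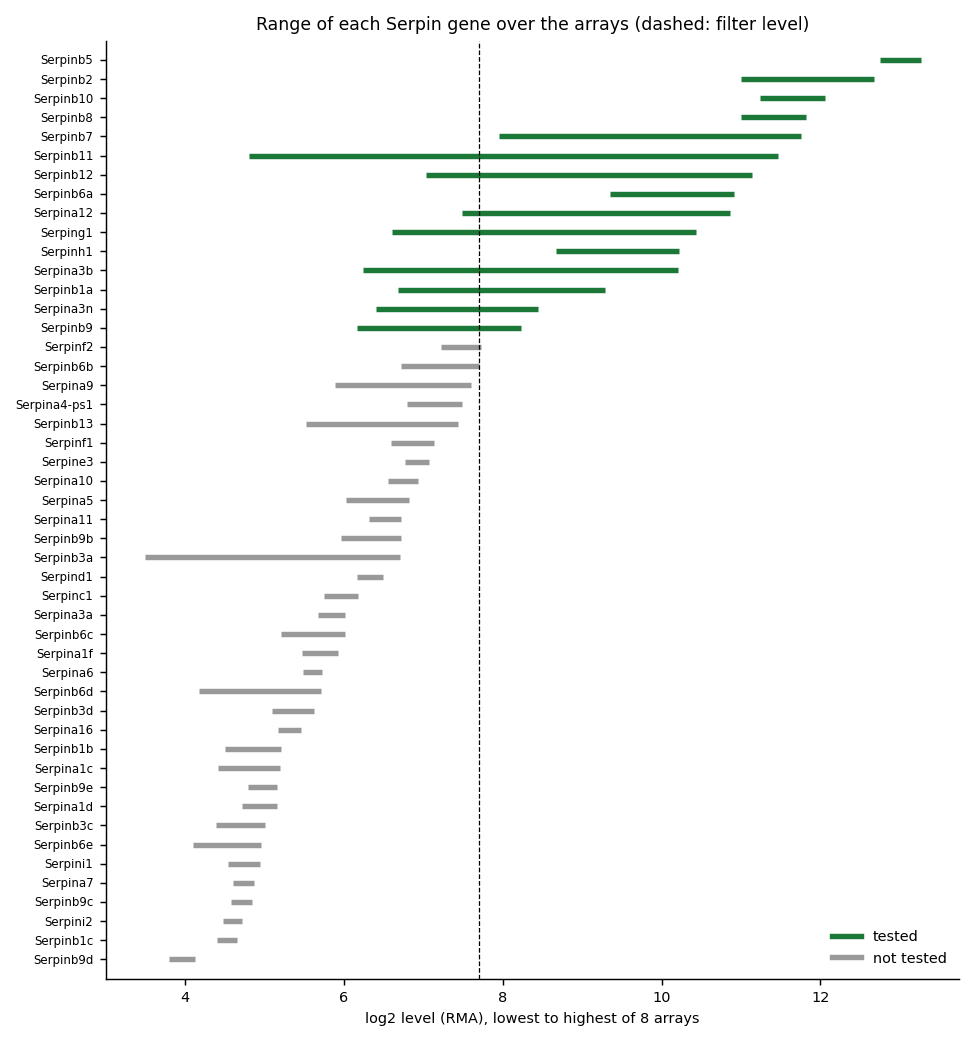
Horizontal bars run from the lowest to the highest of 8 arrays for each of the 48 Serpin genes, in RMA log2 levels, with tested genes in green, the others in grey and the filter level of 7.70 dashed. Serpinb5 stays between 12.75 and 13.26, while Serpinb11 runs from 4.80 to 11.47.

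In the model, limma took the 4 fractions and genotype as terms and the assumed pool as a random block, and p-values were adjusted over all 10720 genes tested. The p-values measure the spread between these arrays only, and the genotype difference rests on 4 pairs of arrays, from 2 pools per genotype under that assumption. The transgene check passed: Snai1 was higher in 4 of 4 K14Snail arrays, by 2.94 ± 0.06 (standard error, adjusted p = 6.11e-05). Cd34 was higher in CD34 positive cells by 7.24 ± 0.25 and Plet1, whose product carries the Mts24 antigen, in Mts24 positive cells by 3.22 ± 0.22. Cd34 was also higher in Mts24 positive cells, by 1.57 ± 0.25 (adjusted p = 0.0107). It stood at 10.51 and 10.03 in the K14Snail and wild type Mts24 negative arrays, against 6.27 and 6.12 in the CD34 negative ones. Of 14 bulge markers 13 rose with CD34 (12.1% of all genes tested) and 12 with Mts24 (11.1%), and 0 fell. The 2 positive fractions thus shared bulge markers, a list that includes Cd34 itself. Of 9 upper follicle markers, Plet1 among them, 9 rose with Mts24 (11.1%) and 1 with CD34 (12.1%). Of these 9, 5 were called with a smaller CD34 than Mts24 enrichment (Gata6, Plet1, Defb6, Cst6 and Sostdc1, 1.7% of all genes tested). Of the 14 bulge markers, 4 had the larger enrichment for CD34 (2.38%) and 1 the smaller. All 12 keratinocyte markers passed the filter, with a mean level of 12.43 to 12.81 over the arrays, and 0 of 10 endothelial markers did. T cell markers were lower in both positive fractions (6 of 6 tested, against 11.6% of all genes tested for CD34 and 11.7% for Mts24). In sorted bulk samples, fewer cells of a type and less RNA per cell cannot be told apart.

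Across genotypes, Serping1 rose and Serpina3b fell, and the other 13 tested members did not pass. Thus 1 of 15 was called higher, against 1.14% of all genes tested, and 1 of 15 lower, against 0.914% (2.05% in either direction). The median genotype difference of the 15 was 0.13, beside 0.02 over all genes tested. The K14Snail array was the higher in 4 of 4 pairs for 6 members, against 18.9% of all genes, and the lower in 4 of 4 for 3 members, against 12.6%. No member had all 4 K14Snail arrays above all 4 wild type arrays, as 1.64% of all genes did.

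In single fractions, which have 1 array per group and no test, members at least 2-fold apart were counted. In CD34 positive cells 3 members were higher in K14Snail (Serpinb11, Serpinb9 and Serping1; 2.8% of all genes tested) and 4 lower (Serpina12, Serpina3b, Serpinb12 and Serpinb7; 2.15%). In CD34 negative cells Serping1 was higher (0.457%) and Serpina3b lower (0.401%). In Mts24 positive cells Serpinb1a, Serpinb9 and Serping1 were higher (1.33%) and Serpina12, Serpina3b and Serpinb7 lower (0.578%). In Mts24 negative cells Serpinb11 and Serpinb1a were higher (0.466%) and Serpina3b lower (0.271%). Serpina3b was the member past this fold in all 4 fractions, and Serping1 was past it in 3.

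Serping1 encodes the C1 inhibitor, the secreted brake on the first complement proteases and plasma kallikrein, whose loss causes hereditary angioedema in humans. It stood at 10.44, 7.69, 8.93 and 7.49 in the K14Snail CD34 positive, CD34 negative, Mts24 positive and Mts24 negative arrays, against 9.11, 6.60, 7.53 and 6.62 in the wild type arrays of these fractions. Every K14Snail array was above its wild type partner, by 1.33, 1.08, 1.40 and 0.87 in the same order, although the genotypes overlapped across fractions. The genotype difference was 1.17 ± 0.09 (2.25-fold, adjusted p = 0.0111), and the adjusted p was 0.0242 without the pool block. The call was lost without the CD34 negative array of either genotype (1.19, adjusted p = 0.0867) or the Mts24 positive array of either genotype (1.11, adjusted p = 0.0761). Interferon response genes moved the same way: 4 of 6 tested were called higher in K14Snail cells (Rtp4, Oasl2, Ddx58 and Oas1a), against 1.14% of all genes tested. The mean level of the list of 10 was 7.28 to 7.89 in K14Snail arrays, against 6.90 to 7.05 in wild type arrays, with Ifit1, Ifit3, Mx1 and Rsad2 below the filter. The part of these genes in the Serping1 difference was not tested.

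Serpina3b belongs to the mouse cluster of antichymotrypsin-like clade A genes. It stood at 6.24, 7.07, 6.53 and 6.72 in the K14Snail CD34 positive, CD34 negative, Mts24 positive and Mts24 negative arrays, against 10.20, 9.71, 7.87 and 8.57 in the wild type arrays. All 4 K14Snail arrays lay under the filter level and below all 4 wild type arrays, a separation in this direction that 1.25% of all genes tested showed. The fitted difference was -2.45 ± 0.40 (5.46-fold lower, adjusted p = 0.0487). It rests on the pool correlation, since the adjusted p was 0.0761 without the pool block, and its size depends on the array background because the K14Snail side is dim. The call was also lost after quantile normalization (adjusted p = 0.0511) and after centring each array on its median (adjusted p = 0.0527). Without the CD34 negative, Mts24 negative or Mts24 positive array of either genotype the difference was -2.29, -2.73 or -2.88 (adjusted p = 0.164, 0.125 or 0.108). By fraction the difference was -3.96 in CD34 positive, -2.64 in CD34 negative, -1.34 in Mts24 positive and -1.85 in Mts24 negative cells. The mean level of 13 sebaceous gland genes also varied, at 7.88, 7.90, 8.57 and 8.44 in the K14Snail arrays in that order, against 9.61, 9.35, 8.68 and 8.94 in the wild type arrays, with 0 of 11 tested called and Awat1 and Awat2 below the filter. Their part in the Serpina3b difference was not tested. Close paralogues, several of which have no probe set of their own here, may share its probe signal.

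**Figure D2:**
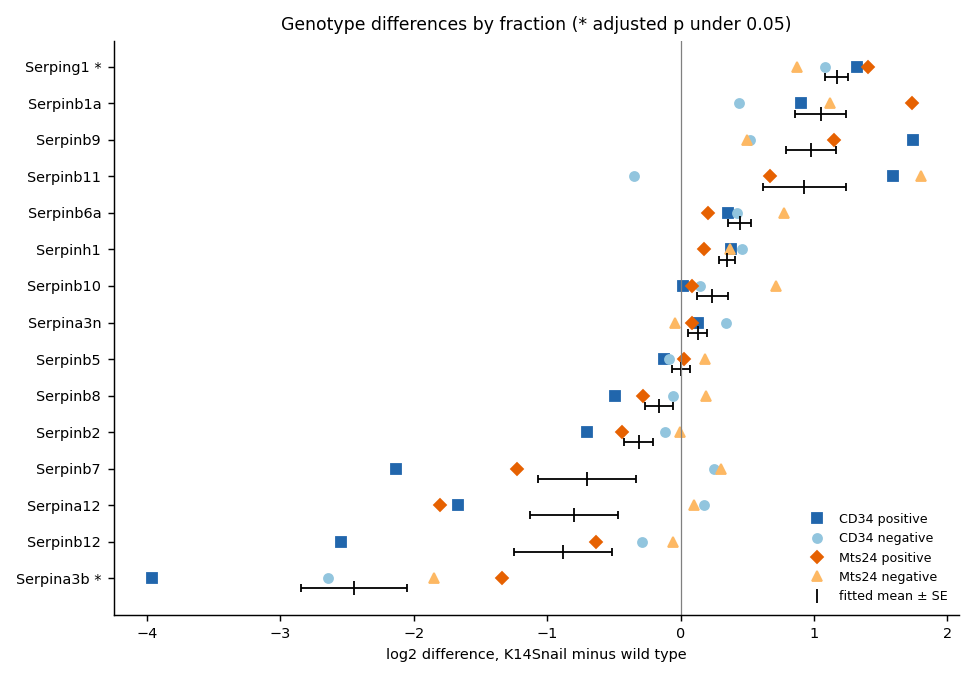
Points show the K14Snail minus wild type log2 difference in each fraction for the 15 tested Serpin genes, and the bar below them the fitted mean with its standard error. Serping1 lies right of 0 and Serpina3b left of 0 in all 4 fractions, while Serpina12 and Serpinb7 lie left of 0 only in the positive fractions.

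The leading intracellular members above wild type did not pass the test. Serpinb1a, whose human counterpart inhibits neutrophil elastase, stood at 9.28, 8.06, 9.13 and 7.81 in K14Snail CD34 positive, CD34 negative, Mts24 positive and Mts24 negative cells, against 8.38, 7.62, 7.39 and 6.69 in wild type cells. Its genotype difference was 1.05 ± 0.19 (adjusted p = 0.0572), with 4 of 4 pairs in that direction. Serpinb9, the granzyme B inhibitor that protects cells from cytotoxic granules, stood at 8.23, 6.85, 8.14 and 6.67 in K14Snail arrays, against 6.49, 6.33, 6.98 and 6.17 in wild type arrays. The Serpinb9 difference was 0.98 ± 0.19 (adjusted p = 0.0647), again in 4 of 4 pairs, and only the K14Snail positive arrays reached the filter level. Both genes are also used by leukocytes. The mean level of 18 myeloid and Langerhans markers was 8.69 and 8.56 in K14Snail CD34 positive and Mts24 positive arrays, against 7.54 and 7.42 in the wild type ones. It was 8.72 and 9.17 in the K14Snail CD34 negative and Mts24 negative arrays, against 9.10 and 9.28 in the wild type ones. Of these markers 0 of 17 tested were called between genotypes, Mpeg1 was below the filter, and their part in these differences was not tested.

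Serpinh1 and Serpinb6a showed small genotype differences that also missed the threshold. Serpinh1 (HSP47), the collagen chaperone of the endoplasmic reticulum, differed by 0.35 ± 0.06 (adjusted p = 0.0571), and Serpinb6a, an intracellular inhibitor of trypsin-like proteases and cathepsin G, by 0.44 ± 0.09 (adjusted p = 0.0692), both in 4 of 4 pairs. Serpinb11 differed by 0.93 ± 0.31 (adjusted p = 0.147), with its CD34 negative pair in the other direction. Serpinb5, the tumour suppressor maspin, had a fitted difference of 0.00 ± 0.07.

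Between the sorted fractions 5 of 15 members were called in the CD34 comparison (23.7% of all genes tested) and 5 of 15 in the Mts24 comparison (22.8%). Between CD34 positive and CD34 negative cells 4 rose (12.1% of all genes tested did) and 1 fell (11.6%). Between Mts24 positive and Mts24 negative cells 4 rose (11.1%) and 1 fell (11.7%). The medians of the 15 were 0.31 for CD34 and 0.39 for Mts24, beside -0.03 and 0.02 over all genes tested. Serpinb11, Serping1 and Serpinh1 rose in both comparisons. Each called difference had the same direction in both genotypes, which largely follows from a call on the mean of 2 pairs and is no separate replication.

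Within 1 genotype, again without a test, 5 members were at least 2-fold higher in K14Snail CD34 positive than CD34 negative cells (Serpina3n, Serpinb11, Serpinb1a, Serpinb9 and Serping1; 5.59% of all genes tested) and 4 lower (Serpina12, Serpinb12, Serpinb2 and Serpinb7; 5.53%). In wild type mice 3 were higher (Serpina3n, Serpinb11 and Serping1; 5.7%) and Serpinb12 lower (4.79%). Of the Mts24 fractions, K14Snail mice had Serpinb11, Serpinb1a, Serpinb9 and Serping1 higher (4.96%) and Serpina12, Serpinb12 and Serpinb7 lower (4.37%), and wild type mice had Serpinb11 and Serpinb6a higher (4.57%) and Serpinb12 lower (3.97%). Serpinb11 and Serpinb12 were the members past this fold for both markers in both genotypes, in opposite directions.

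Serpinb11 had the largest marker differences of the family. This clade B serpin inhibits trypsin-like proteases in mice, while the human form has lost that activity. It stood at 11.47 and 9.79 in K14Snail CD34 positive and Mts24 positive arrays, against 4.80 and 6.75 in the K14Snail negative arrays of these markers, and at 9.87 and 9.12 in the wild type positive arrays, against 5.15 and 4.95 in the wild type negative ones. The 4 positive arrays were all far above the 4 negative arrays, which lay under the filter level, so the sizes depend on the array background. How many of all genes were separated in this way was not counted. Serpinb11 was tested only because these 4 positive arrays reached the filter level. The difference was 5.69 ± 0.52 for CD34 (adjusted p = 0.00139) and 3.60 ± 0.52 for Mts24 (adjusted p = 0.00885). The Mts24 call was lost without the K14Snail Mts24 positive array (3.68, adjusted p = 0.0527) and without the wild type one (3.53, adjusted p = 0.0571).

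Serping1 was higher by 2.63 ± 0.15 in CD34 positive cells (6.20-fold, adjusted p = 0.000361) and by 1.17 ± 0.15 in Mts24 positive cells (2.25-fold, adjusted p = 0.00618). The positive arrays of each marker were above its negative ones, for Mts24 only narrowly (7.53 in wild type positive, 7.49 in K14Snail negative). The share of all genes separated in this way was not counted. Its CD34 enrichment exceeded its Mts24 enrichment by 1.46 ± 0.21 (adjusted p = 0.0247). Its adjusted p was 0.0651 with the pool as a fixed block, and 0.0578 to 0.112 without any 1 of the CD34 negative, Mts24 positive or Mts24 negative arrays, with differences of 1.28 to 1.65.

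Serpina3n, a secreted inhibitor known to block granzyme B and neutrophil elastase, stood at 8.44 and 8.31 in the K14Snail and wild type CD34 positive arrays, against 6.74 and 6.41 in the CD34 negative arrays. In Mts24 positive arrays it stood at 7.10 and 7.02, against 6.62 and 6.66 in Mts24 negative arrays. The CD34 difference was 1.80 ± 0.12 (3.49-fold, adjusted p = 0.000567), while the Mts24 difference of 0.42 ± 0.12 did not pass (adjusted p = 0.0560). The enrichments differed by 1.38 ± 0.17 (adjusted p = 0.0169). Serpina3n was tested only because its CD34 positive arrays reached the filter level, so these p-values are descriptions. In the comparison of enrichments 2 of 15 members were called higher for CD34, against 2.38% of all genes tested, and 0 lower, against 1.7% (4.08% in either direction). The Serpina3n call was lost without any 1 of the CD34 negative, Mts24 positive or Mts24 negative arrays, with differences of 1.23 to 1.53 and adjusted p of 0.0511 to 0.0771.

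Serpinh1 stood at 10.22 and 9.84 in the K14Snail and wild type CD34 positive arrays, against 9.38 and 8.92 in the CD34 negative arrays, and at 9.62 and 9.44 in the Mts24 positive arrays, against 9.04 and 8.67 in the Mts24 negative arrays. The differences were 0.88 ± 0.11 (adjusted p = 0.00335) and 0.67 ± 0.11 (adjusted p = 0.0108). The second call was lost without the K14Snail Mts24 negative (adjusted p = 0.0741), wild type Mts24 negative (adjusted p = 0.0663) or wild type Mts24 positive array (adjusted p = 0.0505). Of 11 tested genes for collagens, its clients, and the enzymes that modify them, 4 rose in CD34 positive cells, against 12.1% of all genes tested. These were Col6a2 (by 1.83), Col6a1 (by 1.78), Col1a2 (by 0.95) and Col4a2 (by 0.53). In the Mts24 comparison 0 of 11 were called, against 22.8% of all genes tested. Fibroblast markers, of which Pdgfra, Dcn, Lum, Dpt and Mfap5 were below the filter, averaged 7.70 to 7.85 in CD34 positive arrays, against 6.85 to 7.12 in CD34 negative arrays. Of 7 tested, 5 rose with CD34 (12.1%): Fbln1, Fbln2 and the collagens Col6a2, Col6a1 and Col1a2 already named. Col1a1 and Col3a1 (0.55 and -0.12) were not called. The list averaged 7.30 and 7.24 in K14Snail and wild type Mts24 positive arrays, against 7.12 and 7.01 in the Mts24 negative ones. With Mts24, 1 of 7 rose (Fbln2, 11.1% of all genes tested). The part of these markers in the Serpinh1 and Serping1 differences was not tested.

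**Figure D3:**
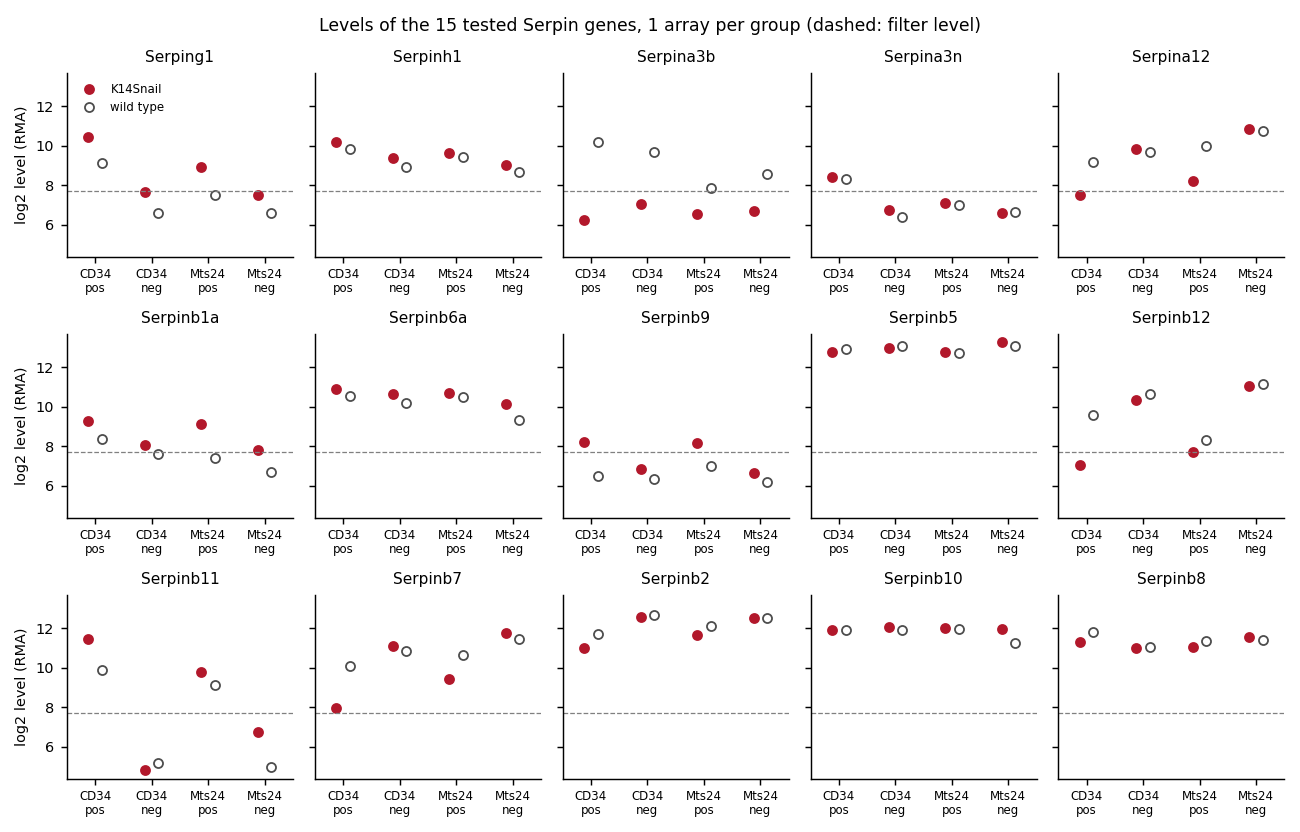
Log2 levels of the 15 tested Serpin genes are plotted by fraction, 1 gene per panel, K14Snail and wild type arrays as separate points, with the filter level dashed. Serpinb11 is above 9 in the 4 positive arrays and below 7 in the 4 negative ones, and Serpina3b is below the filter level in the 4 K14Snail arrays.

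Serpinb2 fell in CD34 positive cells and Serpinb12 in Mts24 positive cells. Serpinb2, the urokinase inhibitor PAI-2, stood at 11.00 and 11.70 in K14Snail and wild type CD34 positive arrays, against 12.56 and 12.68 in the CD34 negative arrays. It fell by 1.26 ± 0.18 (adjusted p = 0.00620), a call lost without the K14Snail CD34 negative array (-1.17, adjusted p = 0.0530), while its Mts24 difference of -0.64 ± 0.18 missed the threshold (adjusted p = 0.0565), with 11.67 and 12.11 in Mts24 positive arrays, against 12.53 in both Mts24 negative arrays. Serpinb12, an inhibitor of trypsin-like proteases, stood at 7.69 and 8.32 in the K14Snail and wild type Mts24 positive arrays, against 11.08 and 11.14 in the Mts24 negative arrays. Its Mts24 difference was -3.10 ± 0.62 (8.60-fold lower, adjusted p = 0.0212), a call lost without any 1 of the 4 Mts24 arrays (-2.49 to -3.72, adjusted p = 0.0507 to 0.117), and its CD34 difference was -2.21 ± 0.62 (adjusted p = 0.0520). In CD34 positive cells it stood at 7.03 in K14Snail and 9.58 in wild type, against 10.37 and 10.66 in CD34 negative cells. The mean of 11 suprabasal differentiation genes was 10.69 and 11.64 in those K14Snail and wild type CD34 positive arrays, against 11.88 and 11.77 in the negative ones. It was 11.57 and 11.73 in the K14Snail and wild type Mts24 positive arrays, against 12.31 and 12.16 in the Mts24 negative ones. Of these 11 genes, 2 were called lower in CD34 positive cells (Krt1 and Tgm3, against 11.6% of all genes tested). Calml3 was called higher there, by 1.79 (12.1%). In the Mts24 comparison 0 were called lower (11.7%), and Calml3 was called higher (11.1%). The part of the suprabasal genes in the Serpinb2 and Serpinb12 differences was not tested.

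Serpinb6a rose in Mts24 positive cells, by 0.85 ± 0.15 (1.80-fold, adjusted p = 0.0146), and its CD34 difference was 0.31 ± 0.15 (adjusted p = 0.197), from 10.91 and 10.55 in the K14Snail and wild type CD34 positive arrays, against 10.63 and 10.21 in the CD34 negative ones. It stood at 10.69 and 10.48 in the K14Snail and wild type Mts24 positive arrays, against 10.13 and 9.35 in the Mts24 negative arrays. The call was lost without the wild type Mts24 negative array (0.64, adjusted p = 0.0628) or the wild type Mts24 positive array (0.73, adjusted p = 0.0798). Serpinb9 and Serpinb1a had Mts24 differences of 1.14 ± 0.32 and 1.01 ± 0.32 that did not pass (adjusted p = 0.0527 and 0.0734), and CD34 differences of 0.77 and 0.99 that did not pass either.

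**Figure D4:**
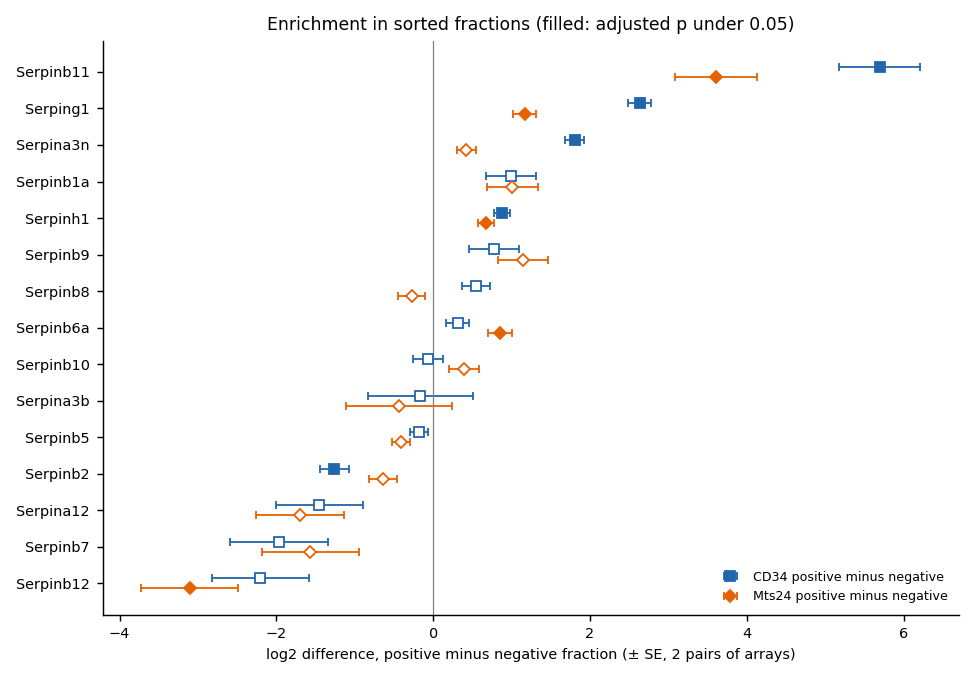
Each row is a tested Serpin gene, with its fitted CD34 (squares) and Mts24 (diamonds) positive minus negative log2 difference and standard error, filled where the adjusted p is under 0.05. Serpinb11 lies farthest right, at 5.69 and 3.60, and Serpinb12 lies left of 0, at -2.21 and -3.10.

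Serpina12 and Serpinb7 were lower in K14Snail than in wild type positive fractions, while the test of a genotype difference that depends on the fraction did not pass. Serpina12, the adipokine vaspin and an inhibitor of kallikrein 7, stood at 7.49 and 8.21 in the K14Snail CD34 positive and Mts24 positive arrays, against 9.17 and 10.01 in the wild type ones, but at 9.87 and 10.86 in the K14Snail CD34 negative and Mts24 negative arrays, against 9.69 and 10.76 in the wild type ones. Serpinb7, whose loss in humans causes a palmoplantar keratosis, stood at 7.96 and 9.43 in the K14Snail positive arrays, against 10.09 and 10.65 in the wild type positive arrays, and at 11.12 and 11.76 in the K14Snail negative arrays, against 10.87 and 11.45 in the wild type negative arrays. Both K14Snail positive arrays were thus the lower of their pair for each gene, and both negative ones slightly the higher, by 0.10 to 0.31. The share of all genes tested with this pattern was not counted. The genotype by fraction interaction was -1.87 ± 0.14 for Serpina12 (adjusted p = 0.118) and -1.96 ± 0.34 for Serpinb7 (adjusted p = 0.280). For Serpinb12, with single-fraction genotype differences of -2.54 (CD34 positive), -0.63 (Mts24 positive) and -0.29 and -0.06 in the negative fractions, it was -1.41 ± 0.69 (adjusted p = 0.735). For Serpinb9, it was 0.94 ± 0.24 (adjusted p = 0.426). No gene of all 10720 tested passed in this comparison by limma, although 845 had an unadjusted p under 0.05, among them 6 Serpin genes. The Serpina12 adjusted p was 0.0637 without the pool block and 0.0470 with the pool correlation set at 0.1. The genotype averages of both genes, -0.80 ± 0.33 and -0.70 ± 0.37, did not pass. Suprabasal differentiation genes averaged 10.69 in the K14Snail CD34 positive array, against 11.64 in the wild type one. They averaged 11.57 in the K14Snail Mts24 positive array, against 11.73 in the wild type one. Of the 11 tested, 0 were called between genotypes or in the interaction, and their part in these differences was not tested.

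**Figure D5:**
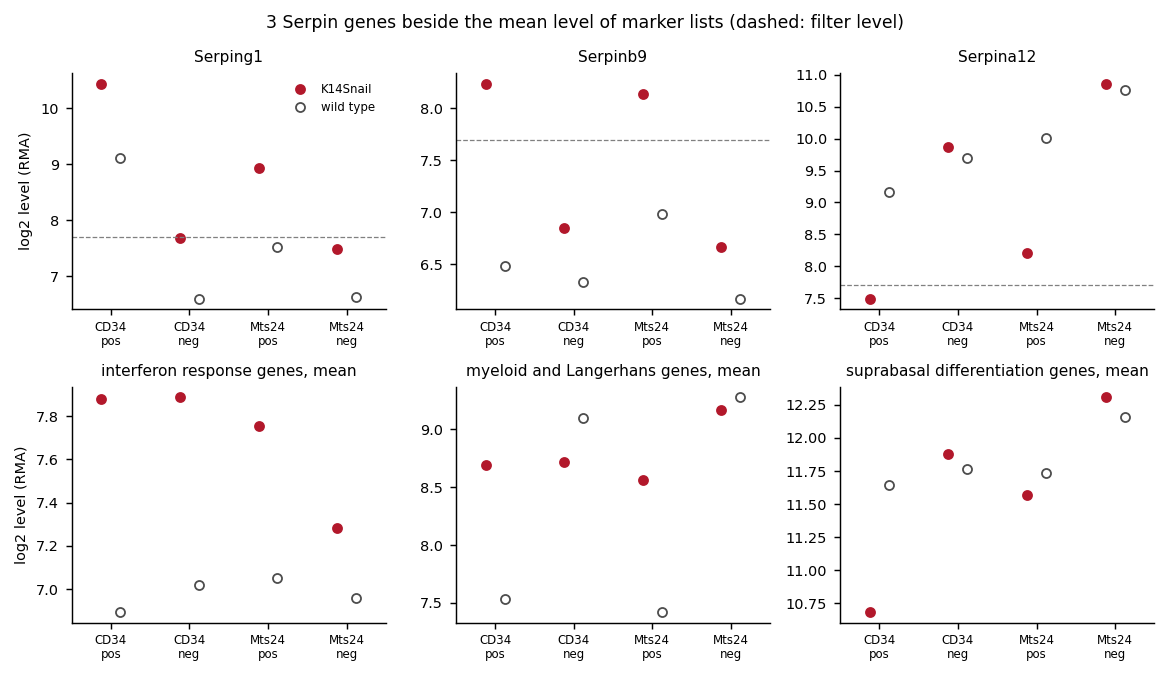
Upper panels show log2 levels of Serping1, Serpinb9 and Serpina12 by fraction and lower panels the mean log2 level of a marker list, with K14Snail and wild type arrays as separate points and a vertical axis of its own for each panel. Myeloid and Langerhans markers average 8.69 and 8.56 in the K14Snail positive arrays, against 7.54 and 7.42 in the wild type ones.

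The clade B cluster of chromosome 1 held Serpinb11, which rose with both markers, and Serpinb12 and Serpinb2. These 2 were lower with both markers, and each was called for 1 of them only. In the RefSeq order of GRCm38.p6, Serpinb5 and Serpinb12 come first, then Serpinb13, Serpinb3a, Serpinb3d, Serpinb3b, Serpinb3c, Serpinb11, Serpinb7, Serpinb2, Serpinb10 and Serpinb8. Serpinb7, beside Serpinb11, had differences of -1.97 for CD34 (adjusted p = 0.0718) and -1.57 for Mts24 (adjusted p = 0.126). Serpinb10 and the furin inhibitor Serpinb8 stayed within 11.25 to 12.06 and 11.00 to 11.82 over the arrays, and neither passed in any of the 5 comparisons. Serpinb10 differed by 0.24 ± 0.11 between genotypes and Serpinb8 by -0.16 ± 0.10. On chromosome 12, Serpina12 and Serpina3b lie in 1 run of clade A genes with Serpina9, Serpina5 and Serpina3n, and on chromosome 13 Serpinb1a, Serpinb6b, Serpinb9 and Serpinb6a lie in a run of clade B genes.

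Proteases that serpins can meet were listed as serine and cysteine proteases. Among 19 tested serine proteases Klk6 rose (by 1.81) and 0 fell in K14Snail cells, and among 8 tested cysteine proteases Casp1 rose, by 1.34 ± 0.12, where 1.14% of all genes tested rose. The list counts are to be read beside the shares of all genes tested. In the CD34 comparison 12.1% rose and 11.6% fell, in the Mts24 comparison 11.1% and 11.7%, and between genotypes 0.914% fell. In the CD34 comparison 1 of the 19 serine proteases rose (Klk14 by 1.14). Another 3 fell (Klk11, Plau and Tmprss13, by 2.16, 1.44 and 0.94). Plau encodes urokinase, the protease that Serpinb2 inhibits. In the Mts24 comparison 4 serine proteases rose, among them Klk10 by 2.94, Klk6 by 1.76 and Prss22 by 1.00, and 2 fell, F3 (tissue factor, a protease cofactor kept in this list) by 1.66 and Tmprss13 by 0.67. Of the 8 cysteine proteases, the lysosomal cathepsin Ctsz rose by 1.66 and Ctsh fell by 0.58 in CD34 positive cells, and Ctsb and Ctsz rose by 0.60 and 0.56 in Mts24 positive cells. Of 9 tested cofactor and clearance genes, 1 rose between genotypes (Hspg2, by 0.64), 2 rose (Hspg2 by 1.14 and Lrpap1 by 0.36) and 2 fell (F2r by 1.04 and Gpc1 by 0.51) in CD34 positive cells, and Hspg2 rose by 0.91 in Mts24 positive cells. Of 12 tested inhibitors of other families, Timp3 fell by 0.50 in K14Snail cells, 3 rose in CD34 positive cells (Pi15 by 4.36, Timp2 by 2.84 and Timp3 by 1.80) and 5 in Mts24 positive cells, led by Timp3 and Timp2, with differences of 2.51 and 2.47.

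The 33 members under the filter varied little: the median of their ranges over the arrays was 0.46, 29 ranged over less than 1, and the median range of the tested members was 2.06. The filter took part in this contrast, since some tested members passed only through groups where they were high. Ranges of all genes were not set beside these. The 4 that ranged over at least 1 were Serpinb3a, Serpinb13, Serpina9 and Serpinb6d. Serpinb3a, the mouse relative of the human squamous cell carcinoma antigens, stood at 6.71 in the K14Snail and 4.70 in the wild type Mts24 negative array, and at 4.85 or less in the other 6. Serpinb13, an inhibitor of lysosomal cathepsins in humans, stood at 5.99 and 5.87 in the K14Snail CD34 positive and Mts24 positive arrays, against 7.19 and 7.44 in the K14Snail negative ones, and at 5.76 and 5.52 in the wild type positive arrays, against 6.41 and 6.35 in the wild type negative ones. Serpina9, known from germinal centre B cells in humans, ranged from 5.88 to 7.60 and Serpinb6d from 4.17 to 5.72. With no filter, Serpinb13 had a CD34 difference of -0.93 (adjusted p = 0.0321) and Mts24 difference of -1.20 (adjusted p = 0.0159), and Serpinb3a, Serpina1c and Serpina9 had Mts24 differences of -1.88, -0.62 and 1.11 that passed.

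The rest stayed under the filter in all arrays except as stated for Serpinb6b (6.73 to 7.71) and Serpinf2 (7.22 to 7.73), the antiplasmin gene. Secreted clade A members there were Serpina1c, Serpina1d and Serpina1f (4.42 to 5.93 over the 3), Serpina3a, Serpina5, Serpina6, Serpina7, Serpina10, Serpina11 and Serpina16 (4.61 to 6.93), and the pseudogene Serpina4-ps1 (6.80 to 7.49). Among them Serpina6 and Serpina7 encode the carriers of corticosteroids and thyroid hormone. Clade B members there were Serpinb1b, Serpinb1c, Serpinb3c, Serpinb3d, Serpinb6c, Serpinb6e, Serpinb9b, Serpinb9c, Serpinb9d and Serpinb9e, none above 6.72. The others were Serpinc1 (antithrombin), Serpind1 (heparin cofactor II), Serpine3, Serpinf1 (pigment epithelium-derived factor), Serpini1 (neuroserpin) and Serpini2, none above 7.13. Further probe sets that name several Serpin genes, 5 in number, were left out, and several Serpina3 and Serpinb9 paralogues were not analysed here.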

How the data were processed

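RNA of 8 sorted cell fractions was hybridised to 8 Affymetrix arrays. The authors deposited log2 values per probe set made with RMA, per the submitters' processing notes, with no version or build given in the sources used here. Their range, 3.04 to 14.49, shows the log2 scale. Of 28874 probe sets 21789 have 1 gene symbol, and others were left out. Members, lists and comparisons were chosen with earlier results of these data known. limma 3.58.1 in R 4.3.3 (statmod 1.5.0) fitted 4 fractions and genotype, with the pool, assumed to be the fractions of 1 genotype and marker, as random block (correlation -0.175, 3 residual degrees of freedom, 2 for the interaction) and Benjamini-Hochberg adjustment over 10720 genes at a threshold of 0.05. With this negative correlation, genotype standard errors of the tested members were smaller than without the block (for Serping1, 0.088 against 0.102). Their marker standard errors were mostly larger (for Serping1 and CD34, 0.148 against 0.145). The fit was tested on simulated data. Named genes are all members called in a comparison, with every array, then members with a difference of at least 1, then all others by range. Of the lists, called genes were named, at most 5 per list and comparison. Alternatives were other pool blocks, normalizations, filters, probe set rules, priors, and arrays or pools left out. The number of arrays, 1 per group, limits the precision. A fraction alone has no replicate check. Python 3.11.15, pandas 2.3.3, numpy 2.4.6 and matplotlib 3.10.9 made tables and plots, and promoter windows came from RefSeq (GRCm38.p6).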

Additional observations from a re-analysis of the deposited data

Results flagged for a closer look

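Serpina3n and Serping1 were picked out because their enrichment differed between markers by the test of that difference. CD34 minus Mts24 was 1.38 ± 0.17 (adjusted p = 0.0169) for Serpina3n and 1.46 ± 0.21 (adjusted p = 0.0247) for Serping1. Both genes passed the filter only through positive fractions, so these p-values are descriptions.

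For Serpina12 and Serpinb7 the genotype difference ran one way in both positive fractions and the other way in both negative fractions. Differences in the negative fractions were small, at 0.10 to 0.31. The share of all genes tested with this pattern was not counted. The interaction was -1.87 ± 0.14 for Serpina12 (adjusted p = 0.118) and -1.96 ± 0.34 for Serpinb7 (adjusted p = 0.280), so neither passed.

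Serpinb8 and Serpinb10 had differences of opposite sign for the 2 markers in both genotypes, some of them near 0, and passed in neither marker comparison. The Serpinb8 difference was above 0 for CD34 and below 0 for Mts24, with a difference between enrichments of 0.82 ± 0.25 (adjusted p = 0.157). For Serpinb10 the signs were turned, at -0.46 ± 0.27 (adjusted p = 0.459). Neither difference passed.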

How the results depend on the processing

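Of 26 named differences, 524 values under 21 alternatives gave 420 on the same side of the threshold, 61 no longer past it, 43 newly past it and 0 of reversed direction. In the genotype comparison the higher count of 1 became 0 with a filter of at least 4 arrays (which no longer tests Serping1) and without any 1 of the 4 pools, and 2 with a trended prior, and the lower count of 1 became 0 without the pool block, at a correlation of 0.1, after quantile normalization, after median centring and without either Mts24 pool. CD34 higher became 2 with the 4-array filter, and CD34 lower to 2 without the block, at 0.1, median-centred, unfiltered, with the 4-array filter, with a trended prior and without the K14Snail CD34 pool, and to 3 without the wild type CD34 pool. Mts24 higher became 7 without the block, at 0.1 and without either CD34 pool, and 0 without either Mts24 pool. Mts24 lower became 3 without the block, at 0.1, median-centred and trended, 2 with the pool as fixed block, after quantile normalization and with the 4-array filter, 4 unfiltered, 5 without either CD34 pool and 0 without either Mts24 pool. The count of larger CD34 than Mts24 enrichment became 1 with a fixed block, and 0 with the 4-array filter and without either Mts24 pool, and the interaction count of lower genes became 1 at 0.1. At a threshold of 0.5, single-fraction members higher in K14Snail cells numbered 2 among CD34 negative cells and 5 among Mts24 negative ones.

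Leaving out 1 array at a time, the ranges were 0 to 1 for genotype higher and 0 to 1 lower, 4 to 5 for CD34 higher and 0 to 3 lower, 2 to 5 for Mts24 higher and 0 to 4 lower, 0 to 3 for CD34 over Mts24 higher, and 0 to 1 higher and 0 to 4 lower for the interaction. These fits held the pool correlation at -0.175. Genotype could not be estimated with pool as a fixed block. Each group has 1 array, so replicate numbers pair nothing, and the pairs of arrays are those set by the fraction and genotype terms. Fraction and the assumed pool were already terms of the model. Where a side stays below 7.70, sizes depend on the background, and fits with few residual degrees of freedom depend on the variances shared between genes.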
